A study of Mus musculus with 6 samples.

Results

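Collagens are the proteins of the extracellular matrix whose chains wind together in threes into a rigid helix. Here their genes were followed in whole mouse skin, as the 42 protein-coding genes with a collagen alpha chain symbol among the 55487 genes of the deposited count table. They were chosen by name: every symbol made of Col, a number, a and a number was taken (44 genes), and Col7a1 and Col17a1, the collagens that anchor the epidermis, were left out. The members were divided into 11 fibrillar chains, 9 network-forming chains, 9 FACIT chains and 13 others.

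All 6 libraries were polyadenylated RNA of dorsal skin at day 2 from mice given DPCP, a chemical that provokes contact hypersensitivity. In 3 of them the mice also had clodrosome, liposomes loaded with the macrophage-killing drug clodronate, and in the other 3 they had encapsome, the matching liposomes without drug, so DPCP and liposomes are common to all libraries. The series asks what macrophages do in hair regeneration after contact hypersensitivity. Strain, sex, age, dose and route are not given in the sources used here, nor whether each library came from its own animal, so p-values measure the spread between libraries only, which may be technical. Within each group the libraries carry the letters A, B and C, and a shared letter does not pair them.

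Fibrillar collagens, above all types I and III with a minor share of type V, build the fibres that give the dermis its strength, and fibroblasts are their main source. FACIT collagens sit on the surface of those fibres, type IV collagen forms the sheet-like network of basement membranes under epithelia and around vessels and muscle fibres, and type VI forms beaded filaments between cells and fibres. Chains are made as procollagen, modified and chaperoned in the endoplasmic reticulum, trimmed by proteases outside the cell and cross-linked by lysyl oxidases.

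The promoters of 6 members are shown. Col1a2, Col3a1 and Col5a1 were among the members that fell most with clodrosome, and Col4a5, Col4a6 and Col15a1 were the members that rose. Each line gives the sequence (GRCm38.p6) before the RefSeq start, read 5′ to 3′ on the gene's strand and trimmed to bases outside the deposited exons. The RefSeq start is not always that of the deposited gene. The Col1a2 stretch lies inside the deposited gene (chr6:4504814-4541544), and 127 of the 250 bases searched were in deposited exons. The Col15a1 stretch ends short of the deposited start at 47208161. The stretches are chr6:4505370-4505492 (plus strand) for Col1a2, chr1:45311288-45311537 (plus) for Col3a1, chr2:27886175-27886424 (plus) for Col5a1, chrX:141475169-141475384 (plus) for Col4a5, chrX:141474077-141474326 (minus) for Col4a6 and chr4:47207762-47208011 (plus) for Col15a1. Capitals mark the letters of 5 short motifs searched on both strands: the CCAAT box (CCAAT), the TATA box (TATAAA), the GC box (GGGCGG), the Smad-binding CAGA box (CAGACA) and the AP-1 site (TGANTCA).
Col1a2: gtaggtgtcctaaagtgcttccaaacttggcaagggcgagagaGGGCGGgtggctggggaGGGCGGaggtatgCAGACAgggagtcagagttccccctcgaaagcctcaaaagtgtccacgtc
Col3a1: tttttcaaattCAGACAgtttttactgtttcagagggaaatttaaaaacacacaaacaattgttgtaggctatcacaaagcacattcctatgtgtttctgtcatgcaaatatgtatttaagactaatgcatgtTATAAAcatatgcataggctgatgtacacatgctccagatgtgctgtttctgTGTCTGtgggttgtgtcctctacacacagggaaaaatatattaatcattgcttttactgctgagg
Col5a1: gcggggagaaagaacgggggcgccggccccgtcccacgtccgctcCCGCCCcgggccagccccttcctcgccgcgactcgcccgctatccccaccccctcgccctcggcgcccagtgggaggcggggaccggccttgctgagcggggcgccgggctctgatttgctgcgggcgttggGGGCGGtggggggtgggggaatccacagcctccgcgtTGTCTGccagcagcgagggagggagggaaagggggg
Col4a5: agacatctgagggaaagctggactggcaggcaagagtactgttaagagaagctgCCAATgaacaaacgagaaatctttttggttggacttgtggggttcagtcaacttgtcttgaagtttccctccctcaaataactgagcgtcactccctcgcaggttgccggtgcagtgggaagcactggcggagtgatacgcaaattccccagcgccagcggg
Col4a6: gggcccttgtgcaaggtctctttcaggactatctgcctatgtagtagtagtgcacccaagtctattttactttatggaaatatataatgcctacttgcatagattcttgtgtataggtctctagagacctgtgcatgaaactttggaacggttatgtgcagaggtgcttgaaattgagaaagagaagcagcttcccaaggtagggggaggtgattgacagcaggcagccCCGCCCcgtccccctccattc
Col15a1: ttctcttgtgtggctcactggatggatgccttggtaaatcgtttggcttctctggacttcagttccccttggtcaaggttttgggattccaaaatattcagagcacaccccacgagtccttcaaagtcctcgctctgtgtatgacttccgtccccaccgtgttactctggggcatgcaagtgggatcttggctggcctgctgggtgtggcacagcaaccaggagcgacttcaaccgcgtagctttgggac

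Col1a2 held 2 GC boxes, first bases at -205 and -188 from the RefSeq start, and a CAGA box at -175. In Col3a1 a TATA box began at -117 and CAGA boxes at -239 and -65, the latter on the other strand. Col5a1 held GC boxes at -205 (other strand) and -73 and a CAGA box at -36 (other strand). The stretch of Col4a5 held a CCAAT box at -196, that of Col4a6 a GC box at -21 (other strand) and that of Col15a1 none of the 5 motifs. RefSeq promoters were matched for 33 of the 42 members, and the 250 bases before the start were searched in each. The GC box was found in 20 of these 33 members (21 of their 36 promoters) and in 32.7% of all 32851 promoters, counted one by one. The CCAAT box was found in 11 members (33.8% of all promoters), the CAGA box in 8 (17.1%), the TATA box in 4 (12.4%) and the AP-1 site in 1, Col6a1 (6.75%). Counted over the 36 promoters, these 4 numbers were the same. Of the 14 members with a matched promoter that fell, 10 held a GC box, 5 a CCAAT box, 4 a CAGA box, 1 a TATA box and 1 an AP-1 site. These matches describe letters in a window and do not show that a factor binds there.

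More collagen genes of the skin fell with clodrosome than rose. Of the 42 members, 34 had enough counts to be tested, and of these 18 fell, 3 rose (Col4a5, Col4a6 and Col15a1) and 13 did not pass the test. The test was edgeR's quasi-likelihood test with Benjamini-Hochberg adjustment over all 17988 genes tested, at an adjusted p of 0.05, and all adjusted p-values below come from it. Over all genes tested, 22.4% passed, 13.0% as lower and 9.41% as higher. The 3 of 34 that rose were thus near the share of all genes. The median log2 fold change of the 34 tested members, clodrosome over encapsome, was -0.48, beside 0.01 over all genes tested. Of the 18 that fell, 10 did so by at least 2-fold, which 3.85% of all genes tested did. The 3 libraries of one group lay wholly below or above those of the other in 20 members that were lower and 3 that were higher, beside 20.7% and 19.5% of all genes tested (40.2% in either direction).

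**Figure D1:**
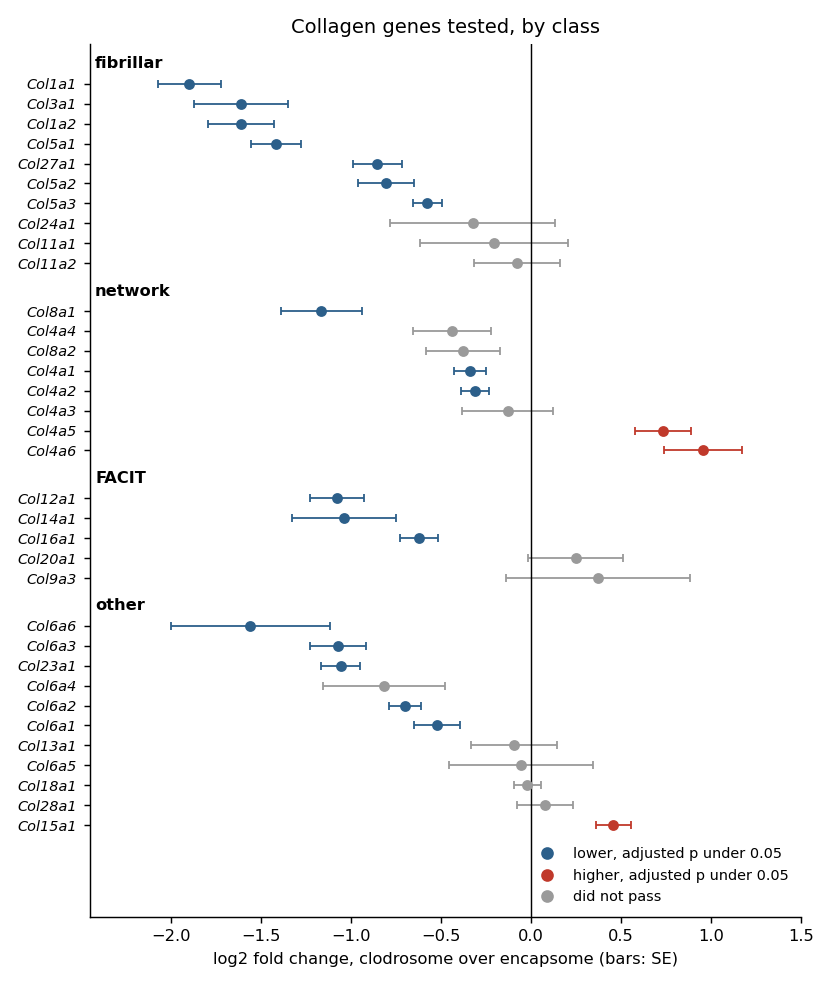
Log2 fold change of each of the 34 tested collagen genes, clodrosome over encapsome, with its standard error as a bar, grouped by class. Blue marks the 18 genes that fell and red the 3 that rose at an adjusted p under 0.05, and grey the 13 that did not pass. No fibrillar gene lies to the right of 0, and the red points are Col4a5, Col4a6 and Col15a1.

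Several measures moved together with these changes. Summed over 9 fibroblast markers that are not collagens (such as Dcn, Pdgfra and Lum), the level was between 1262 and 2199 CPM (counts relative to the scaled total of each library) with clodrosome and between 3886 and 4393 with encapsome, and 7 of the 9 fell. All 6 macrophage markers fell, with a summed level of 490.2 to 1177 CPM against 2653 to 3180. None of 6 basal keratinocyte markers fell and 3 rose (22798 to 23268 against 15563 to 19429 CPM), as did 4 of 6 endothelial markers (515.4 to 580.0 against 375.1 to 431.8) and 4 of 6 skeletal muscle markers (3838 to 5584 against 2803 to 3346). Most of the keratinocyte sum was Krt14 (mean 15668 against 12429 CPM), which did not pass (adjusted p = 0.0693). Of 6 markers of mural cells (pericytes and smooth muscle) Acta2 rose and Pdgfrb fell (426.8 to 555.9 against 417.7 to 472.3 CPM). Of 6 Schwann cell markers 2 rose (99.2 to 142 against 89.6 to 108), and of 6 adipocyte markers 1 fell (1023 to 1345 against 1089 to 1291). Over all genes tested 13.0% fell and 9.41% rose, so 1 call among 6 markers is near those shares. No listed marker of any type was at 0 in all libraries, though some, such as Snorc of cartilage, were at 0 in most. The basal keratinocyte markers summed to at least 15563 CPM in each library, so epidermal RNA was abundant in every library of this skin series. In whole skin, fewer cells of a type and less RNA per cell cannot be told apart, and the part of these markers in the collagen differences was not tested.

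Library totals lay between 26649396 and 35566351 counts, except 116965654 in clodrosome A. The libraries were divided at the median of their rRNA gene content into 2 sets. These were clodrosome A, clodrosome C and encapsome A (0.238% to 0.405% of counts) and the rest (0.693% to 0.753%). The labels name no batch. Each set holds a single library of one group, encapsome A in the first and clodrosome B in the other. The groups of all 21 members that passed the test did not overlap, so their direction within a set is fixed and is no further evidence.

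Of the 4 classes, the fibrillar class differed most in summed level (2.95-fold). That sum was mostly Col1a1, Col1a2 and Col3a1. They held 39.5% of the summed collagen level with clodrosome and 60.0% with encapsome, of 48.1% and 67.5% for the whole class (means). The ranking of the classes by fold was not repeated without these chains. Of its 11 members 10 were tested: 7 fell, none rose, and the median log2 fold change was -0.83. These 7 members also fell in each of the 11 alternative fits. The chains of types I and III, which make the bulk of dermal fibres, fell by the largest amounts.

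Col1a1 (ENSMUSG00000001506, GRCm38 chr11:94936224-94953042, plus strand), the chain present as a pair in each type I molecule, stood at 266, 173 and 216 CPM in clodrosome libraries A, B and C and at 962, 813 and 670 CPM in encapsome libraries A, B and C. Every encapsome library was above every clodrosome library. The means were 219 ± 46.5 and 815 ± 146 CPM (SD, n = 3 each), and the log2 fold change was -1.90 ± 0.174 (SE; adjusted p = 1.63e-04). Col1a2 (chr6:4504814-4541544, plus strand), its partner chain, had 395, 243 and 309 CPM with clodrosome and 1133, 966 and 796 CPM with encapsome. The groups were again apart, with a log2 fold change of -1.61 ± 0.183 (adjusted p = 4.16e-04). Col3a1 (chr1:45311538-45349706, plus strand), whose product forms type III fibres alone, had 1672.5, 732 and 997 CPM with clodrosome and 3919, 3418 and 3054 CPM with encapsome. Clodrosome A was the highest of its group by far and still below each encapsome library. The log2 fold change of Col3a1 was -1.61 ± 0.259 (adjusted p = 0.00247). On the log2 CPM scale (0.1 CPM added), the mean of clodrosome A and C minus encapsome A, the libraries of low rRNA share, was -1.602 for Col3a1. Clodrosome B minus the mean of encapsome B and C, those of high share, was -2.14. For Col1a1 these differences, each with 1 library on one side, were -2.003 and -2.09. Their direction was fixed, since the groups of both genes did not overlap, and is no further evidence.

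Type V collagen is found inside type I fibres and limits their width. Its chain Col5a1 (chr2:27886425-28039514, plus strand) had 64.7, 49.3 and 59.6 CPM with clodrosome and 174, 166 and 125 CPM with encapsome. All clodrosome values were below all encapsome values, with a log2 fold change of -1.42 ± 0.140 (adjusted p = 2.23e-04). Col5a2, its usual partner, had 244, 149 and 197 CPM against 372, 349 and 311 CPM (log2 fold change -0.81 ± 0.158, adjusted p = 0.00651). Col5a3, another chain of the type, had 58.5, 68.4 and 59.6 CPM against 95.6, 93.6 and 88.6 CPM (-0.58 ± 0.0808, adjusted p = 0.00121). Neither gene had overlapping groups. Col27a1, one of the later-described fibrillar chains, was low in level, with 3.85, 3.68 and 4.20 CPM against 6.52, 7.41 and 7.26 CPM (-0.85 ± 0.137, adjusted p = 0.00244). Of the remaining fibrillar chains, Col24a1, Col11a1 and Col11a2 did not pass the test (log2 fold changes of -0.32 ± 0.457, -0.21 ± 0.409 and -0.08 ± 0.239) and none exceeded 2.13 CPM in any library. Col2a1, the main collagen of cartilage, was not tested and had at most 7 counts in any library.

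**Figure D2:**
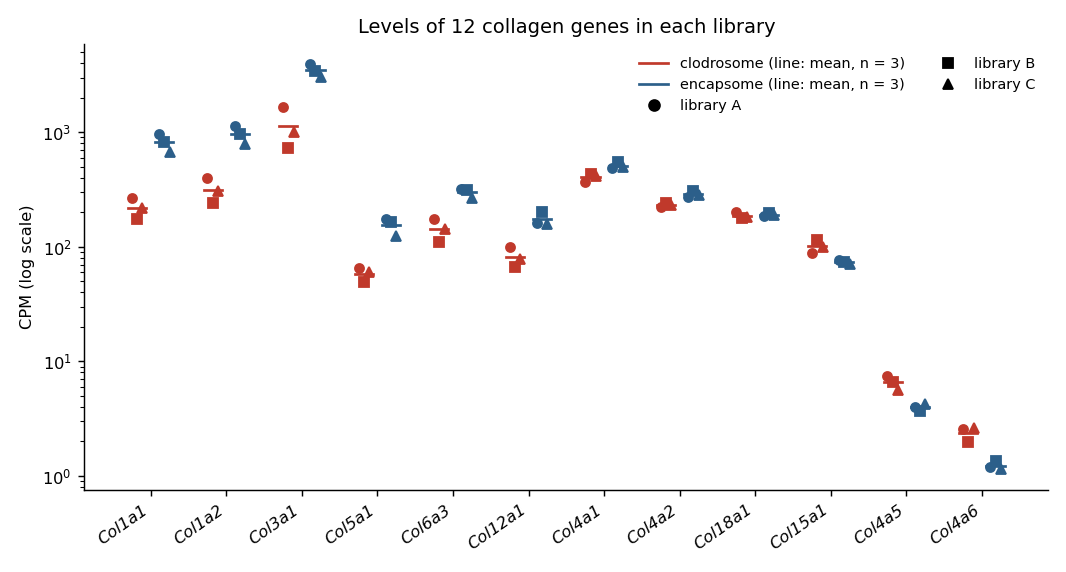
Level of 12 collagen genes in each of the 6 libraries, in CPM on a log axis, clodrosome in red and encapsome in blue, with a marker shape for each library and a line at the group mean (n = 3). For Col1a1, Col1a2, Col3a1 and Col5a1 the groups are apart with encapsome higher, and for Col4a5, Col4a6 and Col15a1 they are apart with clodrosome higher.

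The FACIT class had only 5 of its 9 members tested. Of these 3 fell and none rose, with a median log2 fold change of -0.62. The 3 that fell were Col12a1, Col16a1 and Col14a1. Col12a1 had 99.8, 66.7 and 78.8 CPM with clodrosome and 160, 202 and 157 CPM with encapsome, with no overlap (log2 fold change -1.08 ± 0.150, adjusted p = 0.00119). Col16a1 had 44.8, 34.7 and 41.9 CPM against 61.3, 68.1 and 58.1 CPM, also without overlap (-0.62 ± 0.106, adjusted p = 0.00317). Col14a1 had 85.8, 39.0 and 45.9 CPM against 154, 112 and 88.2 CPM. Its groups were separated by a narrow gap, between clodrosome A and encapsome C. Its log2 fold change was -1.04 ± 0.287 (adjusted p = 0.0300), and this call was lost with DESeq2 (adjusted p = 0.0704) and without clodrosome B (0.0667), clodrosome C (0.103), encapsome A (0.0982) or encapsome B (0.0741). Col20a1 and Col9a3 did not pass (0.25 ± 0.265 and 0.37 ± 0.511).

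Network-forming collagens did not move as a block. Of 9 members 8 were tested, 3 fell (Col4a1, Col4a2 and Col8a1) and 2 rose (Col4a5 and Col4a6). The median log2 fold change was -0.33. Col8a1, a short-chain collagen that forms hexagonal lattices, had 14.5, 11.3 and 12.2 CPM with clodrosome and 18.3, 37.5 and 29.97 CPM with encapsome. The encapsome libraries were spread over a wide range, all above clodrosome (-1.16 ± 0.226, adjusted p = 0.00616). Its partner Col8a2 did not pass (-0.38 ± 0.204, adjusted p = 0.223).

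The 6 chains of type IV collagen lie as 3 gene pairs, each pair head to head. The major pair, Col4a1 (chr8:11198423-11312826, minus strand) and Col4a2 (chr8:11312805-11449287, plus strand), makes the network found in nearly all basement membranes, and the starts of the pair are 21 bases apart. Col4a1 had 369, 429 and 415 CPM with clodrosome and 489, 552 and 493 CPM with encapsome. Col4a2 had 223, 239 and 230 CPM against 272, 306 and 280 CPM. Both had groups without overlap and a small change: the log2 fold change of Col4a1 was -0.34 ± 0.0900 (adjusted p = 0.0253) and that of Col4a2 was -0.31 ± 0.0770 (adjusted p = 0.0192). Both calls were lost without clodrosome A, clodrosome C, encapsome B or encapsome C, each left out singly, where the adjusted p lay between 0.0580 and 0.107 for Col4a1 and between 0.0556 and 0.0859 for Col4a2. That left 1 network chain, Col8a1, as lower in each of those fits.

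The pair on the X chromosome was higher with clodrosome. Col4a5 (X:141475385-141689234, plus strand) and Col4a6 (X:141165403-141474076, minus strand) start 1309 bases apart, and their products combine in a minor type IV network of the epidermal basement membrane. Col4a5 had 7.49, 6.54 and 5.64 CPM with clodrosome and 4.00, 3.66 and 4.26 CPM with encapsome, a log2 fold change of 0.73 ± 0.157 (adjusted p = 0.00995). Col4a6 had 2.54, 1.97 and 2.60 CPM against 1.19, 1.345 and 1.14 CPM (0.95 ± 0.216, adjusted p = 0.0128). In both genes every clodrosome library was above every encapsome library. The call of Col4a6 was lost without clodrosome C (adjusted p = 0.0520), which left 1 network chain as higher. The third pair, Col4a3 and Col4a4 on chromosome 1 with starts 72 bases apart, did not pass (-0.13 ± 0.251 and -0.44 ± 0.215).

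**Figure D3:**
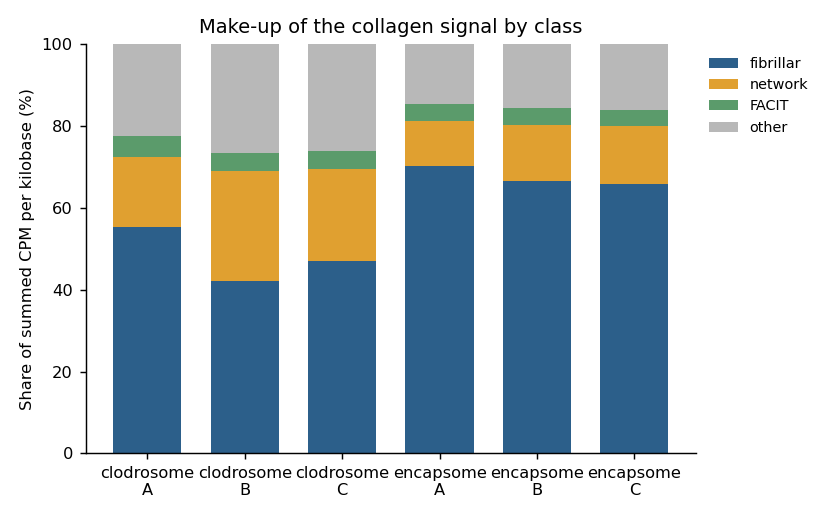
Share of the summed collagen level (CPM per kilobase of exon over the 42 members) held by each class in each library, as stacked bars in percent. The fibrillar share is between 42.2% and 55.3% in the clodrosome libraries and between 65.8% and 70.1% in the encapsome libraries.

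Of the 13 other members 11 were tested, of which 5 fell and Col15a1 rose, with a median log2 fold change of -0.52. Type VI chains made up 4 of the 5. Without encapsome A or encapsome B, each left out singly, 3 of the 5 passed. Col6a3, the large chain that joins the basic pair in type VI filaments, had 176, 111 and 142 CPM with clodrosome and 322, 316 and 265 CPM with encapsome (-1.07 ± 0.155, adjusted p = 0.00145). Col6a2 had 110, 94.1 and 113 CPM against 182, 173 and 160 CPM (-0.70 ± 0.0905, adjusted p = 7.91e-04). Col6a1 had 176, 123 and 159 CPM against 237, 220 and 201 CPM (-0.52 ± 0.127, adjusted p = 0.0174). None of these 3 chains had overlapping groups, and the call of Col6a1 was lost without encapsome A (adjusted p = 0.0599) or encapsome B (0.0591). Col6a6, which can take the place of Col6a3, had 1.91, 0.756 and 3.81 CPM against 8.61, 5.63 and 4.87 CPM (-1.56 ± 0.442, adjusted p = 0.0331). The Col6a6 call was lost with DESeq2 (adjusted p = 0.0705) and without clodrosome A (0.0933), encapsome A (0.109), encapsome B (0.0733) or encapsome C (0.0522). Col6a4 (-0.82 ± 0.339) and Col6a5 (-0.06 ± 0.398) did not pass.

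Col23a1, a collagen that spans the cell membrane, had 14.3, 12.2 and 14.1 CPM with clodrosome and 31.2, 27.5 and 26.0 CPM with encapsome. The groups were far apart relative to their spread (-1.06 ± 0.106, adjusted p = 2.39e-04). Col13a1, a membrane collagen too, did not pass (-0.10 ± 0.238). The multiplexins Col15a1 and Col18a1 are basement membrane collagens of vessels, muscle and epithelia that carry sugar side chains. Col15a1 had 89.0, 115 and 99.7 CPM with clodrosome and 76.8, 73.8 and 70.4 CPM with encapsome, with no overlap (0.46 ± 0.0968, adjusted p = 0.00953). Col18a1 had 199, 177 and 183 CPM against 184, 196 and 189 CPM. Those groups overlapped, and the log2 fold change was -0.02 ± 0.0749 (adjusted p = 0.872), turning to 0.01 when scaled by library totals only. Col28a1 did not pass (0.08 ± 0.154).

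The 8 members that were not tested were Col2a1, Col9a1, Col9a2, Col10a1, Col19a1, Col22a1, Col25a1 and Col26a1. None had more than 57 counts or 0.663 CPM in any library. Several of them are known from cartilage (Col2a1, Col9a1, Col9a2, Col10a1), and 6 cartilage markers that are not collagens summed to at most 0.875 CPM. Col22a1, a collagen of the muscle-tendon junction, had 57, 4 and 24 counts with clodrosome and 2, 2 and 4 counts with encapsome. Its 3 encapsome libraries and clodrosome B were under the limit that a count of 0 allows (3 fragments, or 6 counts, since both ends were counted; counting error only).

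The left-out epidermal collagens Col7a1 and Col17a1 were both higher with clodrosome, by 0.49 ± 0.118 (adjusted p = 0.0171) and 0.39 ± 0.0839 (adjusted p = 0.00950) on the log2 scale.

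The makeup of the collagen RNA by class was compared as well as its amount, and no class share passed the test. Levels of different genes were set side by side as CPM per kilobase of exon, with the exon length of the deposited table. On this scale Col3a1 was the highest member (mean over the 6 libraries 234), followed by Col1a1 (78.8), Col4a1 (61.3) and Col1a2 (51.5). In the clodrosome libraries the order of the last 3 was Col4a1 (54.2), Col1a1 (33.3) and Col1a2 (25.4), and in the encapsome libraries it was Col1a1 (124), Col1a2 (77.7) and Col4a1 (68.5). The deposited exon length of Col1a2, 12426 bases, is long beside the 6563 of Col1a1, which lowers its value per kilobase.

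Summed over the 42 members, the level was 515, 362 and 418 CPM per kilobase with clodrosome and 1015, 933 and 818 with encapsome, 2.13-fold higher in the mean of the latter. The 42 genes held 0.445%, 0.289% and 0.348% of all counts with clodrosome and 0.874%, 0.812% and 0.702% with encapsome. By class, the summed level was 2.95-fold higher with encapsome for fibrillar chains, 1.89-fold for FACIT chains, 1.33-fold for the others and 1.26-fold for network chains. The fibrillar share of the total was 55.3%, 42.2% and 46.9% with clodrosome and 70.1%, 66.5% and 65.8% with encapsome, a difference of -19.3 percentage points. The share of network chains was 17.1%, 26.9% and 22.6% against 11.02%, 13.7% and 14.0%, and that of the others was 22.5%, 26.6% and 26.0% against 14.8%, 15.6% and 16.2%. FACIT chains took 5.04%, 4.34% and 4.41% against 4.12%, 4.27% and 3.90%. Groups did not overlap in any of the 4 class shares, so each gave an exact two-sided permutation p of 0.10 (0.10 after adjustment over the 4), the smallest that 3 libraries against 3 allow. Shares add up to the whole, so the classes are not independent. Without Col1a1, Col1a2 and Col3a1 the fibrillar difference was -4.30 points and that of FACIT chains turned to -2.56. The FACIT difference was 0.50 points with all libraries and 0.281 without clodrosome A.

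Whether chains of a molecule kept their proportion was compared next, and no pair passed the test. The log2 ratio of 2 chains per kilobase was compared in 5 pairs by exact two-sided permutation tests, adjusted over the 5. The ratio of Col1a1 to Col1a2 was 1.28, 1.35 and 1.32 with clodrosome and 1.61, 1.59 and 1.59 with encapsome, a log2 difference of -0.28 without overlap (exact p = 0.10, the smallest possible; adjusted p = 0.167). The ratio of Col5a1 to Col5a2 was 0.297, 0.370 and 0.340 against 0.524, 0.533 and 0.449 (-0.58, p = 0.10, exact, adjusted p = 0.167). That of Col6a1 to Col6a2 was 3.05, 2.49 and 2.66 against 2.47, 2.41 and 2.39 (0.17, p = 0.10, exact, adjusted p = 0.167), and without clodrosome A its difference was 0.09. None of these 3 pairs had overlapping groups, and this test cannot give a smaller p with 3 libraries a group.

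Col1a1 to Col3a1, chains of different molecules, had ratios of 0.238, 0.354 and 0.325 against 0.367, 0.356 and 0.328. The groups overlapped, clodrosome A stood apart, and the log2 difference was -0.22 (exact p = 0.20, adjusted 0.25) with all libraries, -0.05 without it and -0.33 without clodrosome B. Col4a1 to Col4a2 had ratios of 1.47, 1.59 and 1.599 against 1.596, 1.599 and 1.56. The difference was -0.03 with overlapping groups (exact p = 0.70, adjusted 0.70), and with a library left out it lay between -0.0539 and 0.00906, the latter without clodrosome A.

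**Figure D4:**
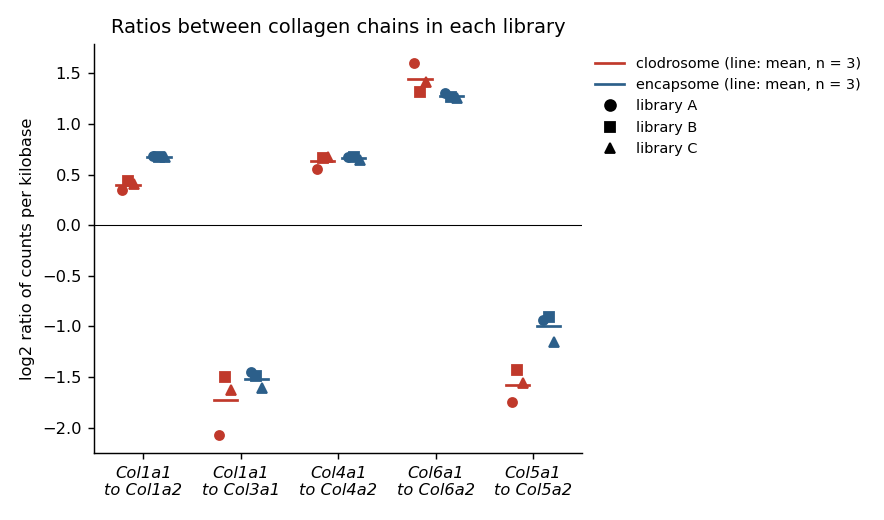
Log2 ratio of the first to the second chain in each of the 5 pairs, from counts per kilobase of exon, in every library, with a line at the group mean (n = 3). Groups are apart for Col1a1 to Col1a2, Col5a1 to Col5a2 and Col6a1 to Col6a2, and overlap for Col1a1 to Col3a1 and Col4a1 to Col4a2.

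The libraries of a group kept much the same order from gene to gene. Among the 18 members that fell, clodrosome B was the lowest of its group in 15 and encapsome C the lowest of its group in 14. Clodrosome A was the highest of its group in 12 and encapsome A in 12. The same order was not counted over all genes, so these counts do not show a trait particular to collagens. Clodrosome B was also the library with the lowest sums of fibroblast and macrophage markers.

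Genes for making collagen fell too. Of 30 biosynthesis genes (chaperones and modifying, trimming and cross-linking enzymes), all tested, 23 fell and 2 rose, with a median log2 fold change of -0.65. Over all genes tested, 13.0% fell and 9.41% rose. Adamts2, which cuts the amino-terminal piece off fibrillar procollagens, had 52.9, 41.5 and 46.4 CPM with clodrosome and 103, 108 and 88.4 CPM with encapsome (-1.09 ± 0.108, adjusted p = 2.33e-04). The collagen chaperone Serpinh1 (HSP47) had 257, 253 and 266 CPM against 416, 433 and 401 CPM (-0.69 ± 0.0728, adjusted p = 2.95e-04). The lysyl oxidase relatives Loxl1 (-1.597 ± 0.175, adjusted p = 3.53e-04) and Loxl3 (-1.26 ± 0.130, adjusted p = 2.78e-04), of the family that cross-links collagen and elastin, fell as well. None of these 4 had overlapping groups. The 2 that rose were Tll1, a procollagen protease (0.58 ± 0.130, adjusted p = 0.0118), and P3h2, a prolyl hydroxylase (0.48 ± 0.108, adjusted p = 0.0127), both named for their direction after their values were seen. Without encapsome B 15 of the 30 fell, and without encapsome C none rose.

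Collagen receptors were divided. Of 10 receptor genes 9 were tested, 4 fell and 3 rose, with a median of -0.06, beside 13.0% and 9.41% of all genes tested. Lair1, an inhibitory collagen receptor of leukocytes, had 12.1, 12.2 and 9.89 CPM with clodrosome and 29.8, 28.4 and 34.5 CPM with encapsome (-1.43 ± 0.117, adjusted p = 1.06e-04). Mrc2, which takes up collagen fragments, fell by 1.07 ± 0.122 (adjusted p = 4.28e-04) and Ddr2, a receptor kinase for fibrillar collagen, by 0.62 ± 0.0937 (adjusted p = 0.00177). Itga2, the alpha chain of an integrin that binds collagen, was higher by 0.42 ± 0.0827 (adjusted p = 0.00646). Without encapsome C 1 of the 3 receptors still passed as higher. Of 7 proteases that cut collagen, 6 were tested, 3 fell and none rose, with a median of -0.67. Mmp14, a membrane-bound collagenase, had 118, 105 and 107 CPM against 224, 238 and 212 CPM (-1.03 ± 0.0803, adjusted p = 9.72e-05). Ctsk, which digests collagen in lysosomes and in bone, had 84.4, 51.4 and 87.4 CPM against 213, 188 and 193 CPM (-1.41 ± 0.175, adjusted p = 6.51e-04). Mmp2, a gelatinase, was lower by a log2 fold change of -1.02 ± 0.280 (adjusted p = 0.0297). Mmp13, an interstitial collagenase, had 38.0, 60.0 and 67.2 CPM against 28.4, 44.7 and 38.5 CPM. Its groups overlapped and it did not pass (0.56 ± 0.215, adjusted p = 0.0933), though it was called higher with DESeq2, with no low-count filter, with the rRNA split as a term and without clodrosome A.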

How the data were processed

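Polyadenylated RNA of whole skin was sequenced in 6 libraries as stranded paired ends, per the labels' protocols. The deposited values are raw gene counts from featureCounts 1.6.2 with Ensembl 102 gene models (GRCm38), per the file headers. The submitters' processing notes name Trimmomatic 0.36, HISAT2 2.2.1, StringTie 2.2.1, featureCounts 1.6.2, DESeq2 1.34.0 and mm10. Neither pairing nor strand was set in the command that the header records, so each read end was counted by itself and an antisense gene is not told apart where exons overlap. Reads on exons shared by genes are left out by default, and 12 of the 42 members share exonic bases with another gene, at most 6.07% of them (Col9a3).

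Count columns were tied to groups through their names alone, and 0 further columns held sample values. Of the 55487 identifiers, 55141 had a symbol. From the deposited counts, genes were filtered with filterByExpr (minimum count 10, minimum total 15) and tested with edgeR 4.0.16 (R 4.3.3; TMM factors; group as the only term). CPM used the same factors, and values per kilobase the deposited exon length. Shares and ratios were compared with exact permutation tests (scipy 1.17.1). The limit that a count of 0 allows (6 counts) was 0.0502 CPM in clodrosome A and 0.166 to 0.228 CPM in the others, so low genes are measured more precisely in clodrosome A. Alternatives were DESeq2 1.42.0, RLE factors, library totals, no filter, the rRNA split as a term, each library left out, shares without length or without the 3 main chains, and 10 counts added to ratios. The script was tested on simulated counts with the same relative spread for every gene. It recovered 85% of 100 genes changed 2-fold and 37% of 100 changed 1.5-fold, and called 12 unchanged genes. Changes of about 1.5-fold may thus have been missed among members that did not pass. Larger changes may also have been missed in members with a wider spread than simulated. Examples are Col24a1 and Col9a3, whose log2 fold changes had an SE of 0.457 and 0.511.

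Values in every library are given for up to 6 called members of each class with the smallest p, for members that rose, for both chains of a ratio and for the 4 members with the highest level per kilobase, and of each further list up to 4 genes with the smallest p are named. The members and lists were chosen with earlier results of these data known.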

Additional observations from a re-analysis of the deposited data

How the results depend on the processing

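Of the 21 members that passed the test, 15 kept direction and call in all 11 alternative fits. The 6 that lost their call in at least 1 fit were Col14a1, Col6a6, Col4a1, Col4a2, Col4a6 and Col6a1, and none of the 21 changed direction. Of the members that did not pass, Col11a1, Col11a2, Col13a1, Col18a1, Col24a1, Col28a1, Col4a3, Col6a5 and Col9a3 changed sign in at least 1 fit. Col4a4 passed as lower with the rRNA split as a term (log2 fold change -0.64, adjusted p = 0.0166). The number of members that fell was 16 with DESeq2, 19 with the rRNA split and between 13 and 17 with a library left out. The biosynthesis genes that fell numbered between 15 and 21 with a library left out and those that rose between 0 and 2. Receptors that rose numbered between 1 and 3 with a library left out, and 4 with RLE factors or library totals only. For proteases that rose the number was 1 with DESeq2, with no low-count filter and with the rRNA split, and 0 to 1 with a library left out. Of 67 alternatives for shares and ratios, 2 reversed a difference: the FACIT share to -2.56 points without Col1a1, Col1a2 and Col3a1, and the log2 ratio of Col4a1 to Col4a2 to 0.00906 without clodrosome A (-0.0539 to 0.00906 over the libraries left out). Causes were not tested. Over all genes, 2477 passed without encapsome B and 2642 without clodrosome C, against 4035. With no filter Col22a1 passed as higher (log2 fold change 2.24, adjusted p = 0.0103), also without clodrosome B (2.59, 0.0118). Of its 6 libraries, 4 were at or under 6 counts. The edgeR fit with no filter gave several members far smaller adjusted p-values at similar fold changes. For Col14a1 the adjusted p was 5.48e-25 in that fit and 0.0300 in the main fit. Calls made with no filter, such as those of Col22a1 and Mmp13, are therefore weak evidence. Other scalings moved the median of all genes by at most 0.0337 on the log2 scale. No paired analysis was possible because the count columns do not carry the replicate numbers that the titles give.

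Low counts kept 8 members out of the test, and apart from Col22a1 none of them passed in an alternative fit that included it. The exact permutation test used for shares and ratios cannot give a p under 0.10 with 3 libraries a group.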
